A study of Mus musculus with 50 samples.

Results

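The mitochondrial ribosomal protein genes described here are nuclear genes named for proteins of the ribosome inside mitochondria. They were chosen by name alone from the protein-coding genes of GENCODE release M21. Their symbols begin with Mrpl (named for the large subunit) or Mrps (named for the small subunit) and a digit, with Mrpl45 left out. The rule gave 77 genes, 48 with Mrpl and 29 with Mrps symbols, out of 21938 protein-coding genes on chromosomes 1 to 19, X and Y. Whether each product sits in the subunit of its symbol was not checked. The rule uses names and no measured value, but it was set with results of these data known. Mrpl45, the gene it leaves out, had a GR promoter peak in all 3 DR, both GR-KO, both GR-con and all 3 NR astrocyte libraries. It also had one in 7 of 8 3T3 libraries and in 2 of 3 libraries of inhibitory neurons. The GR counts of members in DR, GR-KO, inhibitory neurons and 3T3 below therefore do not hold for the whole family. The 77 genes serve as a promoter-bound housekeeping set against which binding of the glucocorticoid receptor (GR) and of nuclear factor I A (NFIA) was compared in every group.

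The mitochondrial ribosome translates the small set of messenger RNAs encoded by mitochondrial DNA, which specify core subunits of the respiratory chain and the ATP synthase. All of its proteins are made in the cytosol from nuclear genes and imported, so its assembly depends on transcription from many separate chromosomal loci with CpG-rich promoters. GR is a ligand-activated nuclear receptor that binds DNA after glucocorticoid exposure, and NFIA is a transcription factor that promotes astrocyte formation and stays expressed in mature astrocytes.

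The data were CUT&RUN peak lists, in which an antibody-tethered nuclease releases the DNA under a bound protein, from 39 libraries in 15 groups. In vivo libraries each came from 175000 sorted nuclei of primary visual cortex (V1), pooled from 3 to 5 mice at postnatal day 14. GR was profiled in 27 libraries and NFIA in 12. Astrocyte nuclei were marked by neonatal virus injection with the GfaABC1D promoter driving a nuclear-envelope EGFP, so the sort depends on that promoter. The GR comparison of rearing used wild-type mice reared normally (NR, 3 libraries) or in the dark (DR, 3 libraries) from birth, both carrying ΔCre, which lacks recombinase activity. GRfl/fl mice, in which the receptor gene is floxed, received ΔCre (GR-con, 2 libraries) or active Cre (GR-KO, 2 libraries). GR and NFIA were further profiled in NR oligodendrocytes (Olig2-Cre), inhibitory neurons (InN, Slc32a1-Cre) and excitatory neurons (ExN, Slc17a7-Cre). All carried the Sun1-GFP reporter, given as Sun1-GFPfl/+ in the methods of the study, with 3 libraries of each protein per cell type. NFIA in NR astrocytes with ΔCre was profiled in 3 libraries, labelled wild-type, although the methods of the study also speak of NFIA in GRfl/fl mice. The 3T3 mouse fibroblast line was exposed for 2 h to 200 nM dexamethasone (DEX), a synthetic glucocorticoid, or to 0.01% ethanol vehicle, with 2 libraries per treatment at 50000 and 2 at 250000 nuclei. Peak lists hold no RNA levels and no reads over single exons, so neither the labelled cell types nor the loss of the receptor could be checked against marker or target gene expression.

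The number of peaks differed widely and sets how many promoters a library can report. NFIA astrocyte libraries held 22373 to 27143 peaks and NR GR libraries 14012, 2262 and 21539, so that NR replicate 2 stood apart. The DR libraries held 69, 28 and 293 peaks, the GR-con libraries 7761 and 6792, and the GR-KO libraries 1846 and 413. The lists of the other cortical cell types ranged from 1 to 4563 peaks and those of 3T3 cells from 189 to 5010. Read depth is unknown from the lists, so no counting interval is given for any share.

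A gene was counted as having a promoter peak where a peak overlapped, by at least 1 bp, the 500 bp to either side of any annotated transcription start of the gene. The DNA under a few member peaks is shown, taken from members with strong or often called sites. The choice is not a ranking, since Mrpl47, Mrps18b and Mrpl18, called in more libraries, are not shown. Sequences were read from the GRCm38.p6 (mm10) assembly along the coding strand of the gene, 5′ to 3′, limited to the stretch of the peak outside annotated exons. Capitals mark matches, on either strand, to the NFI core half-site TTGGC, the CCAAT box, the GC box GGGCGG, the ETS core CCGGAAG or the NRF1 core.
Mrpl34, NFIA astrocyte replicate 2, chr8:71464519-71464698 (+), upstream of the first exon: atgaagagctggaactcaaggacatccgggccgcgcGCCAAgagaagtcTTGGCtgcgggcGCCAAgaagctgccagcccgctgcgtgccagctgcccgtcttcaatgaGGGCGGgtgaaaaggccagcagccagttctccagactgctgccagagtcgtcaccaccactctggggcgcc
Mrpl17, NFIA astrocyte replicate 2, chr7:105811100-105811279 (-), immediately upstream: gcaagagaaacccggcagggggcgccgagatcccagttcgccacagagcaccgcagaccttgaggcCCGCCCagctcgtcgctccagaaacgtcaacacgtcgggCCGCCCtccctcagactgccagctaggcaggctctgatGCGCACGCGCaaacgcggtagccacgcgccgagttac
Mrps27, NFIA astrocyte replicate 2, chr13:99344706-99344785 (+), immediately upstream: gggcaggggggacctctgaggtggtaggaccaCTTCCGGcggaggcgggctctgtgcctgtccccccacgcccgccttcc
Mrps6, NFIA astrocyte replicate 3, chr16:92058202-92058269 (+), immediately upstream: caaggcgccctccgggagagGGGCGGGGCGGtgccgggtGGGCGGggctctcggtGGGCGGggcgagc
Mrpl41, GR NR astrocyte replicate 1, chr2:24975099-24975271 (-), immediately upstream: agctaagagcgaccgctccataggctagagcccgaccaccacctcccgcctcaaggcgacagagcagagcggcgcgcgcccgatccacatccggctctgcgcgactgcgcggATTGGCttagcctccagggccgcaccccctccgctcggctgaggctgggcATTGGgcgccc
Mrpl32, GR NR astrocyte replicate 3, chr13:14613166-14613239 (-), immediately upstream: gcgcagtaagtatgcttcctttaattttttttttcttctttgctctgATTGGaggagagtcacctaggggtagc
The Mrpl34 stretch held 3 TTGGC matches, at positions 37 to 41, 50 to 54 and 62 to 66 counted from its 5′ end, and no other shown stretch held more than 1. This motif was added to the search after the Mrpl34 sequence had been read. The Mrps6 stretch held 4 GC boxes, one pair of them sharing a base. In Mrpl41, 1 of the 2 CCAAT matches overlapped the TTGGC match. A match is a description of the letters and does not show that a factor sits there.

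NFIA lay at the promoters of most mitochondrial ribosomal protein genes in astrocytes. The 3 libraries placed a peak at 56, 59 and 53 members, or 72.7%, 76.6% and 68.8%, a mean of 72.7% ± 3.9 (SD, n = 3). These values were close together and lay above those of all protein-coding genes, at 38.6%, 40.5% and 37.7%. In at least 2 of the 3 libraries, called a consensus here, 56 members (72.7%) had a promoter peak beside 39% of all genes. A peak was present in all 3 libraries at 51 members, beside 7285 of all genes (33.2%). Within 50 kb of a start the consensus held 73 members (94.8%) beside 68.2% of all genes.

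GR peaks at the same promoters were found in NR astrocytes at a level that depended on the library. The 3 NR libraries placed GR at 36, 3 and 51 members, or 46.8%, 3.9% and 66.2%, with an SD of 31.9 percentage points (n = 3). Replicate 2 was the low one, with a promoter peak at 3.22% of all genes against 25.5% and 38.8% in the other two libraries. The consensus held 35 members (45.5%) beside 25.1% of all genes, and 59 members (76.6%) beside 54.5% when peaks within 50 kb were counted. Only 3 members (3.9%) had a peak in all 3 NR libraries, beside 630 of all genes (2.87%). All 35 members of the NR GR consensus were also in the NFIA consensus, which is 62.5% of the latter, and for all genes the shares were 98.9% and 63.5%.

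**Figure D1:**
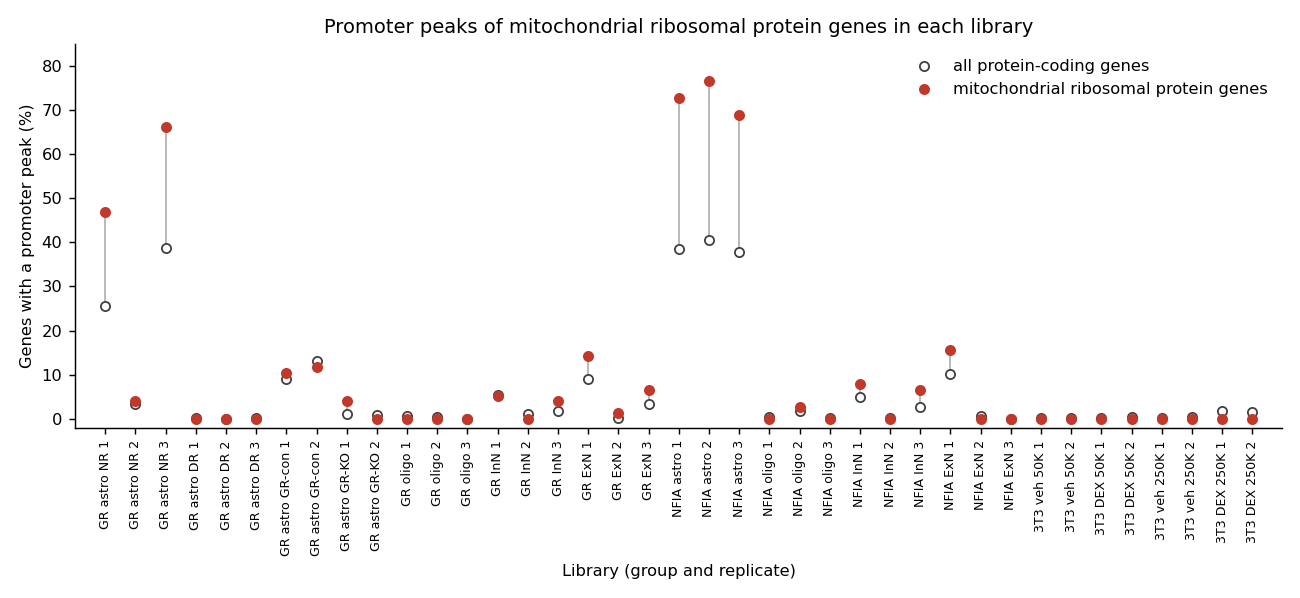
Percentage of genes with a promoter peak (vertical axis) in each of the 39 libraries (horizontal axis, by group and replicate), with filled points for the mitochondrial ribosomal protein genes and open points for all protein-coding genes. The 3 NFIA astrocyte libraries sit between 68.8% and 76.6% of members, NR GR replicates 1 and 3 at 46.8% and 66.2%, and the DR and 3T3 libraries at 0.

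None of the 77 members had a promoter peak in any DR library, where the consensus over all genes was 0.0456%, or 10 genes. Mrpl45, left out by the rule, was one of those 10, so the zero rests on leaving it out. The members in every NR and no DR library were Mrpl32, Mrpl44 and Mrpl47, which is 3 of 77 (3.9%) beside 2.70% of all genes. Mrpl32 encodes a large-subunit protein that matures after cleavage by a mitochondrial protease, Mrpl44 carries a ribonuclease III-like fold, and Mrpl47 belongs to the large subunit. Another 32 members had a peak in 2 NR libraries and none in DR, 17 in 1 NR library and none in DR, and 25 in neither group. With no member called in DR, these classes only follow the NR counts. The NR consensus held 45.5% of members beside 25.1% of all genes. A peak in at least 1 NR library was present at 52 members (67.5%) beside 39.6% of all genes. A peak in at least 1 DR library was present at 0.232% of all genes. Most genes of any kind with an NR peak therefore had none in DR. No member passed the test, since 3 against 3 libraries cannot go below p = 0.1 in the exact two-sided permutation test, and the adjusted p was 1.0 throughout. Without NR replicate 2, 35 members separated the groups beside 24.5% of all genes. The groups also differed in total peaks, as given above, and the part of that difference in these counts was not tested. Within 50 kb, the DR consensus held 1 member (1.3%) beside 0.392% of all genes. That member was Mrps6, a counterpart of a bacterial small-subunit protein, with a site away from its promoter in 2 libraries.

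In GRfl/fl astrocytes, few members were called in either genotype. GR-con libraries placed a peak at 8 and 9 members, or 10.4% and 11.7%, beside 8.99% and 13.0% of all genes. GR-KO libraries placed one at 3 and 0 members, beside 1.08% and 0.734% of all genes. The GR-con consensus held 4 members (5.19%) beside 6.05% of all genes, namely Mrpl18, Mrpl32, Mrpl47 and Mrps18b, and the GR-KO consensus held 0 members beside 0.223% of all genes, with Mrpl45, which is no member, among the latter. Within 50 kb the GR-con consensus held 30 members beside 26.8% of all genes. Of the promoters, Mrpl18, Mrpl32 and Mrps18b had a peak in both GR-con and in no GR-KO library, 3 of 77 members (3.9%) beside 4.90% of all genes, a share near the background. Without GR-con replicate 1 the count was 8 beside 11.8% of all genes, and without replicate 2 it was 6 beside 7.63%. With 2 against 2 libraries the exact permutation test cannot go below p = 0.333, so none passed. The 3 members with a peak in GR-KO replicate 1 were Mrpl47 with a fold enrichment over IgG of 12.04, Mrpl44 with 7.02 and Mrpl24 with 5.68. For Mrpl47 the GR-con values were 12.7 and 11.98, so the value in that GR-KO library lay between them. Mrpl24, a counterpart of the bacterial protein of the same number, had a peak of 8.34 in GR-con replicate 1 and none in replicate 2, while Mrpl44 had none in either.

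The other cortical cell types showed few member promoters. For GR, no oligodendrocyte library had any. The InN libraries had 4, 0 and 3, or 5.19%, 0% and 3.9%, beside 5.39%, 1.15% and 1.77% of all genes, so replicate 1 lay at the level of all genes. The ExN libraries had 11, 1 and 5, or 14.3%, 1.3% and 6.49%, beside 9.02%, 0.205% and 3.33%. The consensus held 0 members in oligodendrocytes beside 0.228% of all genes, 0 in InN beside 1.39%, and 6 in ExN (7.79%) beside 2.85%. The InN count of 0 rests on leaving out Mrpl45, which had a GR promoter peak in 2 of 3 InN libraries. Within 50 kb the ExN consensus held 15 members (19.5%) beside 11.2%. The ExN count rests on replicates 1 and 3, since it fell to 0 without replicate 1 and to 1 without replicate 3. The 6 ExN promoters were those of Mrpl17, Mrpl18, Mrpl37, Mrpl41, Mrpl47 and Mrps18b. All 6 were in the NFIA astrocyte consensus, and 5 were in the NR GR consensus, which is 83.3% beside 82.1% for all genes.

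For NFIA, the oligodendrocyte libraries had 0, 2 and 0 member promoters, InN had 6, 0 and 5, and ExN had 12, 0 and 0. The shares of all genes were 0.273%, 1.84% and 0.0547% in oligodendrocytes, 4.83%, 0.196% and 2.62% in InN, and 10.2%, 0.67% and 0% in ExN, beside 7.79%, 0% and 6.49% of members in InN and 15.6% in ExN replicate 1. The consensus held 0 members in oligodendrocytes beside 0.251% of all genes, 2 in InN beside 0.944%, and 0 in ExN beside 0.611%. The InN pair were Mrps28 and Mrps35, both of the small subunit. At Mrps28 the InN fold enrichments were 7.62 and 5.51, below the 8.51, 12.41 and 10.53 of the astrocyte libraries. Its percentiles among promoter peaks overlapped, at 93.7 and 62.3 in InN and 61.6, 81.1 and 79.3 in astrocytes. At Mrps35 the InN fold enrichments were 4.31 and 4.87, within the astrocyte range of 3.66 to 5.36. The medians over all genes with a promoter peak were 4.1 and 5.18 in InN replicates 1 and 3, beside 7.09, 7.38 and 6.73 in astrocytes. Mrpl50 and Mrpl51, proteins of the large subunit, each had an NFIA peak in 1 InN and 1 ExN library. Across both proteins, 24 members (31.2%) had a promoter peak in some oligodendrocyte, InN or ExN library, beside 20.4% of all genes. Each of these 24 also had one in an astrocyte library, whereas 394 of 4466 such genes of all kinds did not.

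Astrocytes were compared with the pooled oligodendrocyte, InN and ExN libraries, 3 against 9, by the exact two-sided permutation test with Benjamini-Hochberg adjustment over all 21938 genes. For NFIA, 31 members (40.3%) were called higher in astrocytes beside 21.3% of all genes, each with a peak in 3 of 3 astrocyte and 0 of 9 other libraries (exact p = 0.00455, adjusted p = 0.0213). Among them were Mrpl47, Mrpl44, Mrpl24 and the small-subunit gene Mrps23. Another 15 members had a peak in 3 astrocyte libraries and 1 other (exact p = 0.0182, adjusted p = 0.061), and 5 had 3 and 2, namely Mrpl37, Mrpl50, Mrpl51, Mrps28 and Mrps35 (exact p = 0.0455, adjusted p = 0.122). No member was called lower. With the replicate number as a block, 0 members passed (smallest adjusted p = 0.0733 in the exact permutation test). The call also needs all 3 astrocyte libraries: with any 1 of them left out, 0 members passed, with smallest adjusted p from 0.0772 to 0.0818 in the exact permutation test.

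For GR the same comparison called 0 members and 0 of all genes, with a smallest adjusted p of 0.266 in the exact permutation test. At an unadjusted p under 0.05 in that test, 25 of 77 members and 3750 of 21938 genes passed. Mrpl44 alone among the members had a GR peak in 3 of 3 NR astrocyte libraries and 0 of 9 others (exact permutation p = 0.00455), 1.3% of members beside 1.08% of all genes. Mrpl32 had 3 and 1 (exact permutation p = 0.0182), and Mrpl47 had 3 and 3 (exact permutation p = 0.182). The other cell types also held fewer peaks in all, and the part of that in these comparisons was not tested.

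At equal numbers of peaks the member counts of NFIA astrocyte and NR GR libraries overlapped, while at 5000 peaks those of GR-con lay below both. Among the 5000 most significant peaks of a library, a depth added after the data had been seen, the NFIA astrocyte libraries placed 10, 14 and 15 members, or 13.0%, 18.2% and 19.5%, beside 8.77%, 11.1% and 10.6% of all genes. NR replicates 1 and 3 placed 10 and 17, or 13.0% and 22.1%, beside 10.0% and 13.4%. NR replicate 2, with 2262 peaks, held too few to be counted at this depth. The GR-con libraries placed 6 and 7, or 7.79% and 9.09%, beside 5.49% and 10.0%. Among the 1000 most significant peaks, the NFIA astrocyte libraries placed 1, 2 and 3 members, or 1.3%, 2.6% and 3.9%, beside 1.15%, 1.56% and 1.47% of all genes. NR GR libraries placed 5, 1 and 1 at that depth, or 6.49%, 1.3% and 1.3%, beside 1.72%, 1.4% and 2.47%, so that replicates 2 and 3 lay below all genes. NFIA InN replicates 1 and 3 placed 4 and 3, or 5.19% and 3.9%, beside 2.47% and 2.01%. No library with at least 1000 peaks had more than 5 members among them.

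No 3T3 library had a promoter peak at any of the 77 members, in vehicle or DEX. This zero too rests on leaving out Mrpl45, which had one in both vehicle libraries at either number of nuclei, in both DEX libraries at 250000 and in 1 of 2 at 50000. The consensus held 0 members beside 0.0547% of all genes in vehicle and 0.109% in DEX at 50000 nuclei, and beside 0.119% and 0.880% at 250000 nuclei. No member separated DEX from vehicle, beside 0.0456% of all genes (10 genes). The exact permutation test within numbers of nuclei cannot go below p = 0.0556. Over all 8 libraries, 549 genes (2.5%) had a promoter peak at least once. Away from promoters, the DEX consensus at 250000 nuclei reached 9 members within 50 kb (11.7%), beside 13.3% of all genes. A site over 500 bp from every start was found in both of these libraries near Mrpl16, Mrpl20, Mrpl33, Mrpl44, Mrps15, Mrps23, Mrps27 and Mrps6. Near Mrps27, which encodes a pentatricopeptide repeat protein of the small subunit, such a site was also present in both libraries of each of the other 3T3 groups, vehicle included.

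**Figure D2:**
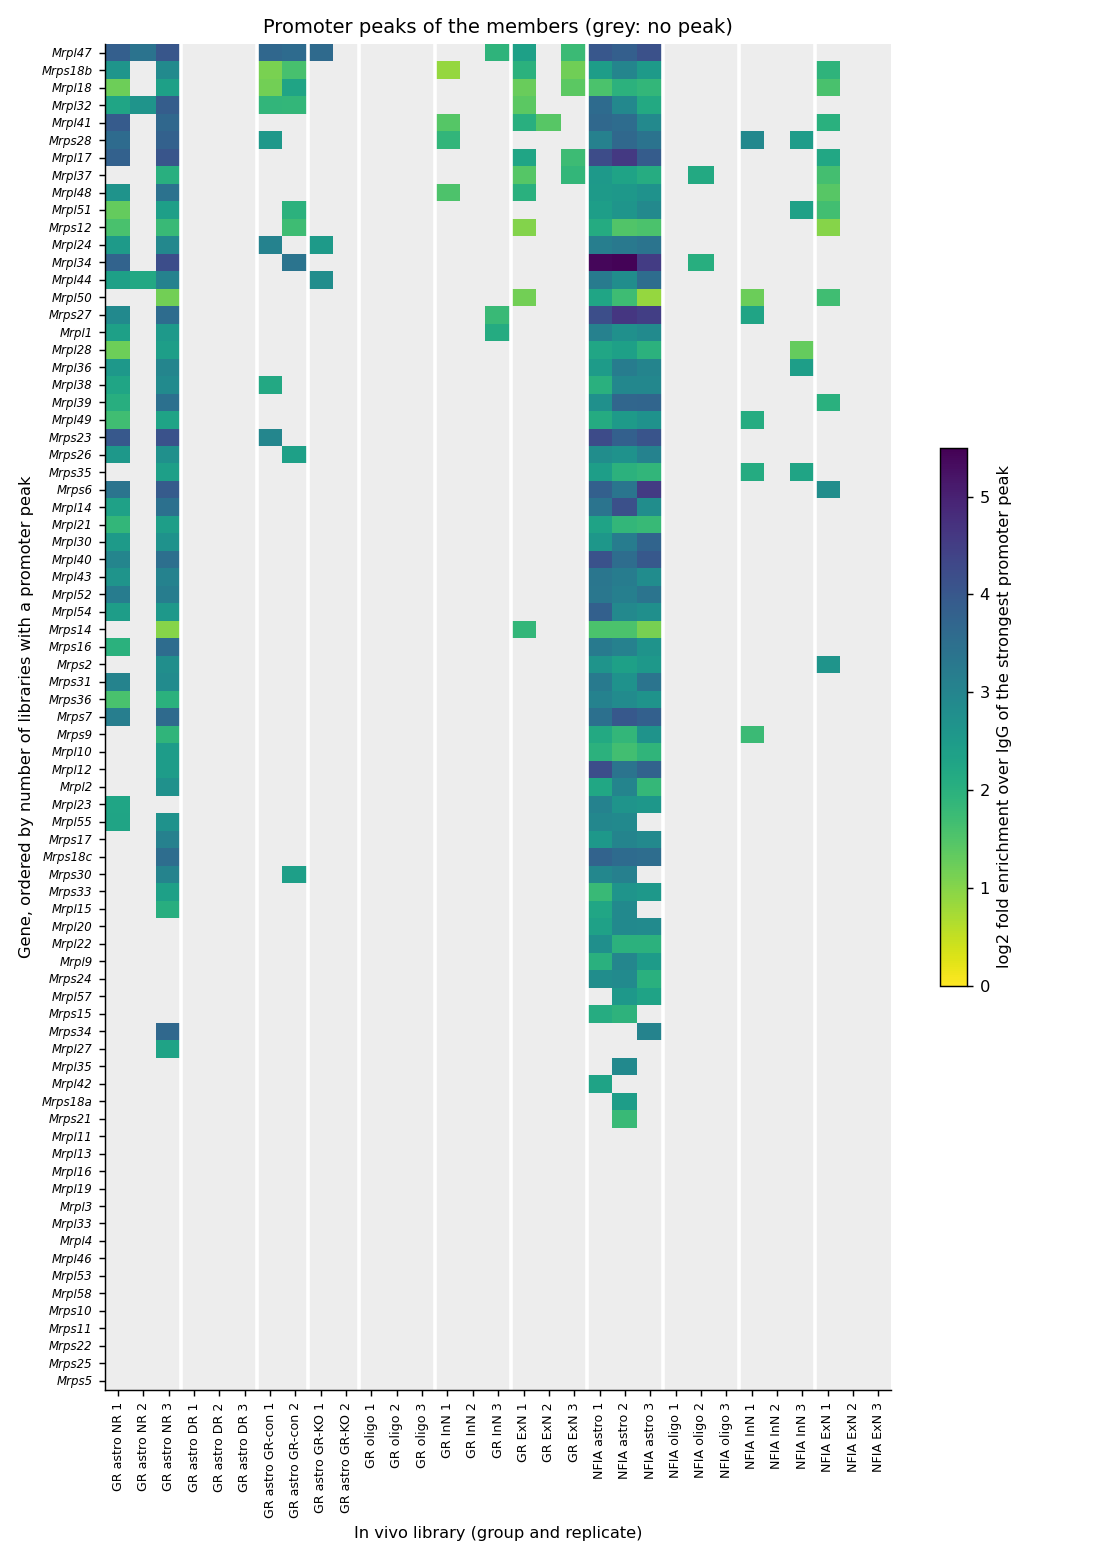
Fold enrichment over IgG on a log2 color scale of the strongest promoter peak of each member (rows, ordered by the number of libraries with a peak) in each in vivo library (columns), grey where no peak was called. The NFIA astrocyte columns and NR GR replicate 3 are filled for most rows, NR GR replicate 1 for 36 of 77, the DR columns are empty, and 15 members have no peak in any library.

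The subgroups of the mitochondrial ribosome were set by the symbol alone. Its letters stood in for the subunit and its number for ancestry. Numbers up to 36 for the large and 21 for the small subunit were counted as having a bacterial counterpart and higher numbers as mitochondria-specific, although Mrpl47, Mrps24 and Mrps28 are known counterparts despite their numbers. Of the 28 Mrpl genes counted as having a counterpart, 19 (67.9%) were in the NFIA astrocyte consensus and 11 (39.3%) in the NR GR consensus. Of the 20 counted as specific to mitochondria, 16 (80.0%) and 13 (65.0%) were. Of the 16 Mrps genes counted as having a counterpart, 11 (68.8%) and 5 (31.2%) were in the NFIA and GR consensus. Of the 13 Mrps genes counted as specific, 10 (76.9%) and 6 (46.2%) were. In each subgroup and for both proteins the share lay above that of all genes, and the subgroups were not tested against each other.

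Individual members ranged from no promoter peak to a peak in 12 libraries. No library called 15 members, 1 library called 5, 2 to 4 libraries called 17, exactly 5 libraries called 14, 6 to 8 called 20 and 9 to 12 called 6. The member called most often was Mrpl47, in 12 libraries with a mean fold enrichment of 11.5, followed by Mrps18b in 11 with 4.51 and Mrpl18 in 10 with 3.31. Mrps28, Mrpl41 and Mrpl32 were called in 9, and Mrpl17, Mrpl48, Mrpl51 and Mrpl37 in 8.

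Mrpl47 lies on chromosome 3 at 32725397 to 32737605 on the minus strand, facing Ndufb5, a subunit gene of respiratory complex I. Its GR fold enrichment was 14.22, 10.57 and 16.33 in NR, and 12.7 and 11.98 in GR-con. The NFIA values in astrocytes were 16.03, 14.19 and 17.51, overlapping those of NR GR. In neurons the GR values were lower, at 3.81 in InN replicate 3 and 5.22 and 3.38 in ExN replicates 1 and 3. The medians over all genes with a promoter peak in these libraries were also lower, at 4.0, 3.6 and 3.25. In the NR libraries those medians were 6.24, 4.84 and 7.19. In all 12 libraries the summit lay nearer to the Ndufb5 start than to that of Mrpl47, for example 20 against 177 bp in NR replicate 1, so the peak cannot be assigned to one gene of the pair.

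Mrpl34 had the highest member values in NFIA astrocyte replicates 1 and 2 and in NR GR replicate 3. In NFIA replicate 3 Mrps6 was higher, at 23.29, and in NR GR replicate 1 Mrps23, Mrpl41, Mrpl47 and Mrpl17 were. This small large-subunit gene lies on chromosome 8 at 71464959 to 71465747 on the plus strand. Its NFIA fold enrichment in astrocytes was 42.54, 43.52 and 23.04, which placed it at the 99.8, 99.9 and 98.9 percentile of genes with a promoter peak. GR gave 13.46 and 18.33 in NR replicates 1 and 3 and 10.38 in GR-con replicate 2, and NFIA 4.15 in oligodendrocyte replicate 2. The summits lay 324 to 395 bp upstream of the nearest annotated start in the stretch shown above with its 3 TTGGC matches.

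Mrpl17 and Mrpl41 were bound in both astrocytes and neurons. Mrpl17, a counterpart of a bacterial large-subunit protein, had NFIA values of 18.77, 24.2 and 14.89 and GR values of 13.93 and 16.67 in NR replicates 1 and 3. In ExN its GR values were 4.79 and 3.33, and its NFIA value 4.63. Mrpl41, of the large subunit, had NR GR values of 15.05 and 12.75 and NFIA astrocyte values of 12.5, 11.74 and 7.56. Its GR values in ExN were 4.09 and 2.71 and in InN 2.75, and its NFIA value in ExN was 4.01. Both genes had lower values in neurons than in any astrocyte library that called them. The same held for all genes with a GR promoter peak, whose median was 3.6 in ExN replicate 1 beside 6.24 and 7.19 in NR replicates 1 and 3. Among GR promoter peaks of ExN replicate 1, Mrpl17 stood at the 79.9 and Mrpl41 at the 64.4 percentile. In NR replicates 1 and 3 the percentiles were 95.8 and 93.4 for Mrpl17 and 97.2 and 84.1 for Mrpl41.

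Among small-subunit genes, Mrps27 had NFIA values of 18.02, 24.89 and 22.31 in astrocytes and 4.92 in InN replicate 1. GR gave 7.38 and 11.73 there in NR and 3.43 in InN replicate 3, so every NFIA value in astrocytes exceeded every GR value. Mrps23 had NFIA values of 18.84, 14.01 and 16.75 and GR values of 15.89 and 17.21 in NR and 7.86 in GR-con replicate 1, with the NFIA and NR ranges overlapping. Mrps6 had NFIA values of 14.13, 10.26 and 23.29 and NR GR values of 10.39 and 15.24, which also overlapped. Mrps23 and Mrps6 were singled out after their values had been seen, as were Mrpl34 and Mrps27.

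The frequently called Mrps18b and Mrpl18 had low enrichment. Mrps18b, 1 of 3 mammalian relatives of a bacterial small-subunit protein, had NR GR values of 6.22 and 7.34, GR-con values of 2.15 and 3.03, and NFIA astrocyte values of 5.42, 7.93 and 5.65. Its summits fell at 2 places, within 77 bp upstream of the nearest annotated start in some libraries and 388 to 488 bp upstream, towards Ppp1r10, in others. Mrpl18, which shares its promoter with the chaperonin gene Tcp1, ranged only from 2.24 to 5.19 across its 10 libraries. The NR values of Mrpl32 were 4.84, 6.29 and 14.66, with NFIA at 12.02, 7.69 and 4.49, so neither protein was the higher throughout. Mrpl32 faces Psma2, a proteasome subunit gene.

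The enrichment at member promoters was typical of promoter peaks. Member medians were 5.67 and 7.33 in NR GR replicates 1 and 3, beside 6.24 and 7.19 over all genes with a promoter peak. In the 3 NFIA astrocyte libraries they were 6.85, 7.38 and 7.06 beside 7.09, 7.38 and 6.73. GR-con gave 5.22 and 4.92 beside 5.0 and 4.8. The median member stood at the 42.1 to 53.1 percentile of promoter peaks in these libraries, so a called member peak stood near the middle of promoter peaks.

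**Figure D3:**
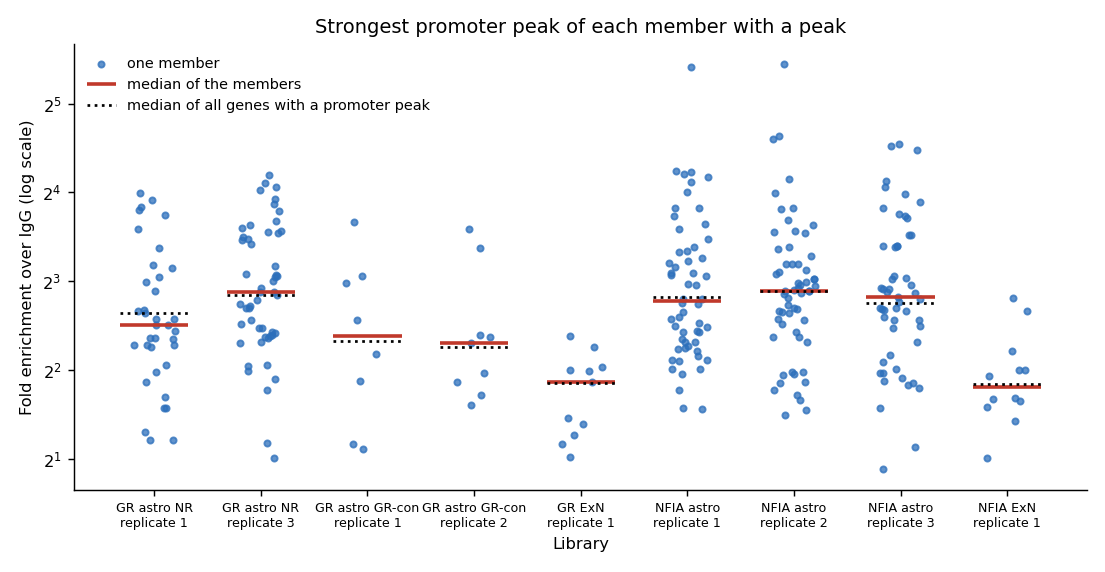
Fold enrichment over IgG (log2-spaced vertical axis) of the strongest promoter peak of each member with a peak (points), by library (horizontal axis). The libraries are astrocyte libraries and, for GR and for NFIA, ExN replicate 1. Solid bars give the median of members and dotted bars the median of all genes with a promoter peak. The medians lie close together in each library, and Mrpl34 is the highest point in the NFIA libraries 1 and 2, at 42.54 and 43.52.

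By the consensus, the 35 members with GR in NR astrocytes were 62.5% of the 56 with NFIA. A stricter contrast of the proteins was met by few promoters. Mrpl20, Mrpl22, Mrpl9 and Mrps24 had an NFIA peak in all 3 astrocyte libraries and no GR peak in any NR or GR-con library, 4 members (5.19%) beside 245 of all genes (1.12%). Mrpl22 and Mrps24 are counterparts of bacterial proteins that line the exit tunnel and the messenger RNA entry, respectively, and Mrpl20 and Mrpl9 belong to the large subunit. Their NFIA values were moderate, at 5.09, 7.38 and 7.28 for Mrpl20, 6.74, 3.92 and 3.9 for Mrpl22, 4.02, 7.91 and 5.57 for Mrpl9, and 6.97, 7.29 and 4.02 for Mrps24. In the other direction, Mrpl27, a large-subunit protein near the peptidyl transferase centre, had a GR peak of 4.97 in NR replicate 3 and no NFIA astrocyte peak, 1 member (1.3%) beside 304 genes (1.39%). Whether GR and NFIA differed at these genes was not tested.

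A promoter peak was found in some library at 62 members (80.5%) beside 48.1% of all genes. The 15 members without any, beside 51.9% of all genes, were Mrpl3, Mrpl4, Mrpl11, Mrpl13, Mrpl16, Mrpl19, Mrpl33, Mrpl46, Mrpl53, Mrpl58, Mrps5, Mrps10, Mrps11, Mrps22 and Mrps25. They include Mrpl3 and Mrps5, counterparts of core bacterial ribosomal proteins, and Mrpl58, a peptidyl-tRNA hydrolase that rescues stalled ribosomes. The nearest peak of any library lay 2681 bp away for Mrpl16, 3338 bp for Mrpl58, 7744 bp for Mrpl3 and 18990 bp for Mrpl11. It lay 157829 bp away for Mrpl13 and 70645 bp for Mrps10, the only 2 members with no peak within 50 kb, beside 22.3% of all genes. Mrpl46 and Mrps11 are transcribed head to head from overlapping loci on chromosome 7 and share their nearby peaks. Both had distal sites, in 1 NR and all 3 NFIA astrocyte libraries, and no promoter peak. Only for these 2 members (2.6%) did every NR or NFIA consensus site within 50 kb lie outside the promoters of all annotated genes. The share of all genes with that pattern was 7.82%. Mrpl19 and Mrpl33, also without a promoter peak of their own, had distal sites in all 3 NFIA astrocyte libraries too.

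Summits at members lay close to the start. The median summit was 27.5, 17 and 27 bp upstream in the NFIA astrocyte libraries, beside 44, 41 and 43 bp over all genes with a promoter peak. Within 100 bp of a start lay 82.1%, 81.4% and 79.2% of member summits, beside 69.3%, 70.5% and 69.5%. For GR the shares were 66.7% beside 66.0% in NR replicate 1 and 82.4% beside 71.0% in replicate 3, so the excess for GR was present in replicate 3 alone of these 2 libraries.

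Many members share their promoter with another gene. An opposite-strand protein-coding start lay within 1 kb for 33 members (42.9%) beside 12.3% of all genes, as for Mrpl47 with Ndufb5, Mrpl32 with Psma2, Mrpl18 with Tcp1 and Mrpl44 with Wdfy1. The peak of a member also fell in the promoter window of another coding gene for 24, 25 and 27 members in the NFIA astrocyte libraries, or 42.9%, 42.4% and 50.9%, beside 21.8%, 21.9% and 22.3% over all genes. Members with such a partner start were in the NFIA consensus in 27 of 33 cases (81.8%), beside 72.6% of all genes with one. Members without were in it in 29 of 44 cases (65.9%), beside 34.3%. For GR in NR astrocytes the shares were 57.6% beside 49.3% with a partner and 36.4% beside 21.6% without, so members stood above all genes in both classes. Of member peaks with a partner, the summit was nearer to the member in 13, 17 and 14 cases and nearer to the partner in 13, 10 and 13 in the NFIA libraries.

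Promoter sequence from RefSeq (GRCm38.p6; 250 bases before to 50 after a start) matched 68 members and 16522 protein-coding genes in all, and 9 members had no entry, namely Mrpl4, Mrpl13, Mrpl15, Mrpl19, Mrpl38, Mrpl54, Mrps28, Mrps34 and Mrps35. Motifs were searched as letters on both strands. The ETS core CCGGAAG, the binding core of factors such as GABPA, was in 25 member promoters (36.8%) beside 12.3% of all. The YY1 core AAGATGGC was in 12 (17.6%) beside 3.29%, and the NRF1 core in 12 (17.6%) beside 6.85%. These 3 are the motifs classically described at nuclear genes for mitochondrial proteins.

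Motifs of the profiled proteins were not more frequent at members than elsewhere. The NFI half-site TTGGCA was in 8 member promoters (11.8%) beside 13.4%, and its core TTGGC, which the longer form contains, in 33 (48.5%) beside 48.5%. The NFI full site, a pair of half-sites facing each other, was in 0 beside 0.0363%. The loose glucocorticoid response element ACANNNTGT was in 2 (2.94%) beside 5.88%, at Mrpl23 and Mrpl34, and the full element in 0 beside 0.454%. The GC box GGGCGG was in 34 (50.0%) beside 48.0%, the CCAAT box CCAAT in 27 (39.7%) beside 38.7%, and the E-box CACGTG in 5 (7.35%) beside 8.11%. AP-1 sites TGANTCA were in 3 (4.41%) beside 7.1% and CREB sites TGACGTCA in 2 (2.94%) beside 2.43%. The CpG observed to expected ratio had a median of 0.818 at members and 0.598 at all promoters.

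The same letters were counted in members with and without an NFIA astrocyte consensus. The ETS core was in 17 of 51 promoters with it (33.3%) and 8 of 17 without (47.1%), the NRF1 core in 11 (21.6%) and 1 (5.88%), and the GC box in 29 (56.9%) and 5 (29.4%). These shares were not tested.

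In windows of 101 bp centred on NFIA astrocyte summits, member promoters held the NFI half-site about as seldom as other promoters and the ETS and NRF1 cores more often. TTGGCA was in 4.92%, 5.97% and 6.67% of member windows in the 3 libraries, beside 6.66%, 5.98% and 5.66% at other protein-coding promoters and 25.0%, 22.8% and 23.1% away from starts. The ETS core was in 16.4%, 20.9% and 18.3% of member windows, beside 9.09%, 9.54% and 9.59% at other promoters and 0.796%, 0.85% and 0.888% away from starts. NRF1 cores were in 16.4%, 16.4% and 15.0% beside 7.67%, 8.11% and 7.97% at other promoters. For TTGGCA, members lay below other promoters in replicates 1 and 2 and above them in replicate 3, while for the ETS and NRF1 cores they lay above in all 3 libraries.

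**Figure D4:**
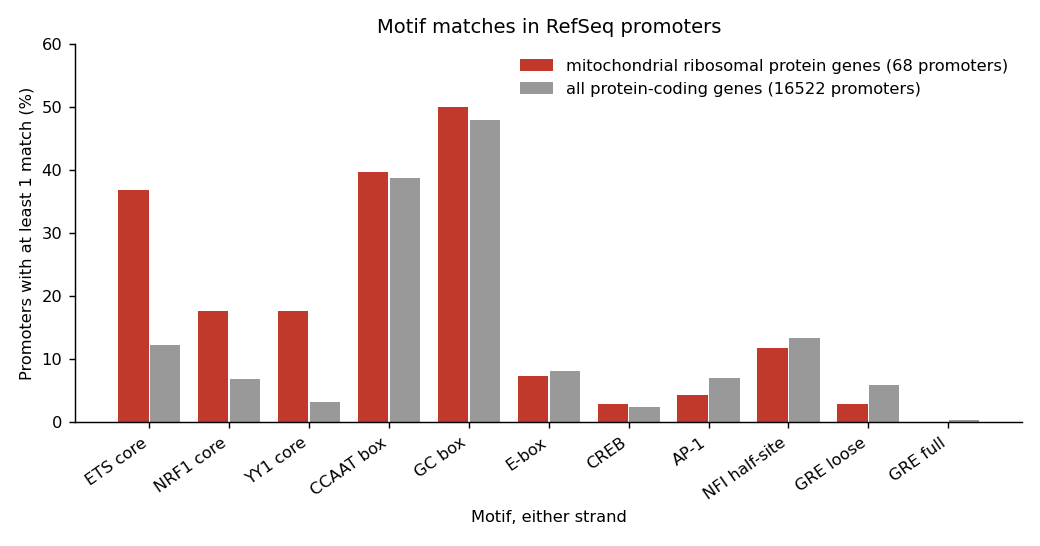
Percentage of RefSeq promoters with at least 1 match to each motif on either strand (vertical axis) by motif (horizontal axis), for 68 member promoters and all 16522. Members exceed all promoters for the ETS, NRF1 and YY1 cores and are level with or below them for the NFI half-site and the loose glucocorticoid response element.

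Other genes of mitochondrial gene expression, from lists set out with the design, were counted in the same way. Of 22 remaining mitoribosome proteins and biogenesis factors, 14 (63.6%) were in the NFIA astrocyte consensus and 8 (36.4%) in the NR GR consensus, among the latter Dap3 of the small subunit and Eral1, a chaperone of ribosomal RNA. Of 12 translation factors, 3 (25.0%) were in the NFIA consensus, namely the initiation factor Mtif2, the release factor Mtrf1l and the elongation factor Tufm, a share below that of all genes. With Taco1, a translational activator, 4 (33.3%) were in the NR GR consensus. Tufm was also the only gene of these 12 in the GR-con and DR consensus and in the 3T3 consensus at 250000 nuclei, in vehicle as well as DEX.

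Of 17 mitochondrial tRNA synthetases, 14 (82.4%) were in the NFIA and 9 (52.9%) in the NR GR consensus. Of 11 genes for mitochondrial DNA transcription and replication, 9 (81.8%) and 6 (54.5%) were, with the RNA polymerase Polrmt and the helicase Twnk in both. Of 9 regulators of mitochondrial biogenesis, 6 (66.7%) and 5 (55.6%) were, among them Nrf1 and Gabpa, whose factors bind the cores described above. Respiratory chain subunits stood at 60 of 85 (70.6%) and 41 (48.2%), near the members at 72.7% and 45.5%. Cytosolic ribosomal proteins stood at 63 of 76 (82.9%) and 47 (61.8%), with 13 (17.1%) in the GR-con consensus against 4 (5.19%) of the members. Cytosolic tRNA synthetases stood at 13 of 17 (76.5%) and 4 (23.5%). No list was tested against another.

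**Figure D5:**
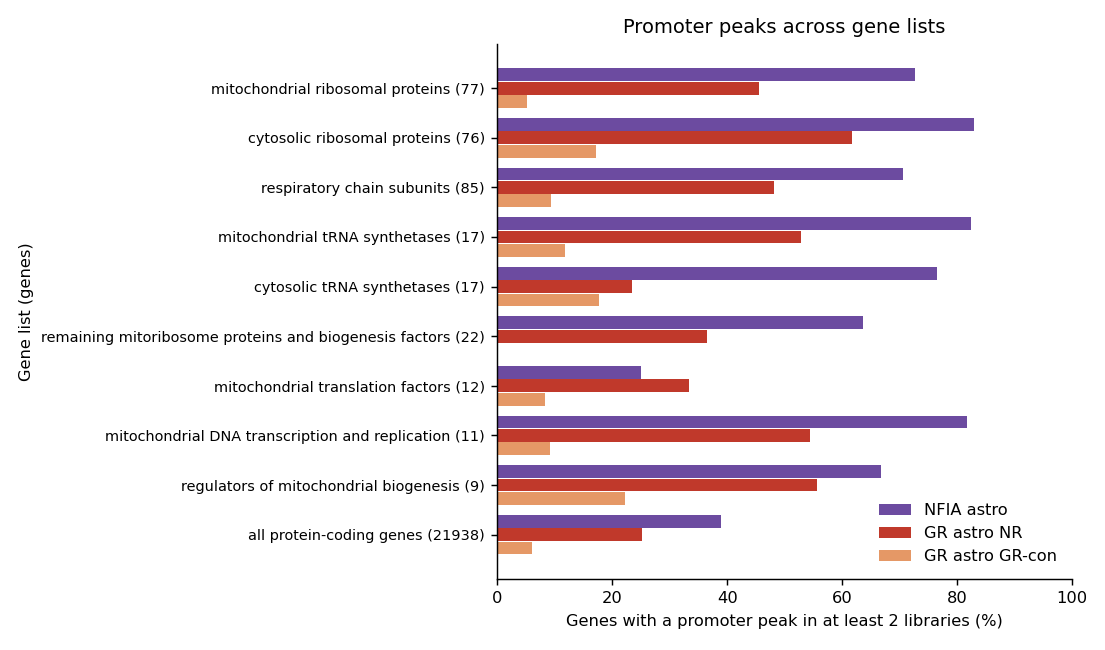
Percentage of genes in each list (vertical axis, with the number of genes) that have a promoter peak in at least 2 libraries (horizontal axis), with bars for the groups named in the key. Mitochondrial ribosomal protein genes stand at 72.7% for NFIA astrocytes and 45.5% for NR GR, and cytosolic ribosomal proteins at 82.9% and 61.8%.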

How the data were processed

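CUT&RUN peak lists of 39 of the 50 samples were used; the other 11, IgG and GFP-negative libraries, were not analysed here. After adapter trimming (cutadapt), the authors used Bowtie2 for alignment to mm10 and Picard against duplicates, kept only well-mapped, short fragments, and ran MACS2 on each library separately with IgG as the control. The deposited lists give, for each peak, a ratio (the fold enrichment over IgG at the summit) and −log10 p- and q-values; the largest q in the lists is 0.01 in vivo and 0.05 in 3T3 cells, so levels were not compared between them. The deposited score column was not used. Replicates were pools of separate mice in vivo; for 3T3 cells nothing says whether cultures were separate, so p-values there measure only the spread between libraries. Reads per library are not in the lists.

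Peaks were matched to starts of GENCODE M21 on GRCm38 in Python 3.11.15 with pandas 2.3.3 and numpy 2.4.6, and drawn with matplotlib 3.10.9. Presence of a peak per gene was compared over libraries by exact two-sided permutation tests, tested on simulated data, with Benjamini-Hochberg adjustment over 21938 genes and a threshold of 0.05. Members and gene lists were chosen with earlier results of these data known. The text names the members called in most libraries, in GR-KO or DR, or in neurons, those with no promoter peak or a distal site only, and those of one protein only; others are marked where named. Alternatives were stricter q, equal numbers of top peaks, other distances, left-out replicates and a replicate block.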

Additional observations from a re-analysis of the deposited data

How the results depend on the processing

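Over 13 results and their alternatives, 125 alternative values stayed within 1.5 times the main count, 44 moved and 0 reversed. Member counts below are out of 77, and the percentages beside them are of all genes under the same setting. In members separating NR from DR, the count of 3 became 0 beside 0.219% with the top 1000 peaks. With a library left out it was 3 to 35 beside 2.7% to 24.5% (35 without NR replicate 2). For GR-con against GR-KO the count of 3 became 1 beside 4.13% at q of at most 0.001. It was 0 beside 0.196% with the top 1000 peaks and 3 to 8 beside 5.21% to 11.8% with a library left out. Members with a GR peak in every NR astrocyte library and in no library of a single other cell type were counted as well. They numbered 3, 2 and 1 for oligodendrocytes, InN and ExN, beside 2.51%, 1.69% and 1.32%. The called count was 0 throughout leave-one-out. The 31 NFIA calls became 0 beside 0% with the top 1000 peaks. They became 56 beside 37.2% when only genes with a promoter peak in at least 2 libraries were tested (8796 genes, fewer tests). With a library left out they were 0 to 40 beside 0% to 26.9%. For NFIA, 49 members beside 31.5% were in every astrocyte and no oligodendrocyte library. The DEX count stayed at 0.

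Consensus promoter members in NR GR numbered 2 beside 1.33% of all genes with the top 1000 peaks. With the top 5000, chosen after seeing the data, they numbered 9 beside 8.34%. They numbered 3 beside 2.87% (every library) and 3 to 35 beside 2.87% to 24.7% (library left out). For GR-con they were 2 beside 4.99% (q of at most 0.001), 1 beside 0.337% (top 1000) and 1 beside 3.47% (top 5000). With a library left out GR-con gave 8 to 9 beside 8.99% to 13.0%. ExN GR gave 3 beside 2.22% (q of at most 0.001), 1 beside 1.32% (top 1000) and 0 beside 0.155% (every library). With a library left out ExN GR gave 0 to 5 beside 0.16% to 2.82%. NFIA astrocytes gave 1 beside 1.18% (top 1000), 12 beside 9.67% (top 5000) and 51 to 55 beside 34.3% to 35.9% (library left out). Within 50 kb, NR GR gave 24 beside 26.2% for sites away from starts and 8 beside 13.3% in every library. GR-con gave 13 beside 11.4% at 10 kb and 13 beside 12.5% away from starts. NFIA gave 40 beside 41.8% away from starts. DEX at 250000 nuclei gave 1 beside 4.14% at 10 kb and 3 beside 7.94% at 25 kb. With a library left out, NR GR gave 8 to 58 beside 13.4% to 54.1% and GR-con 33 to 37 beside 35.2% to 36.8%. NFIA then gave 71 to 72 beside 64.1% to 65.6%, and DEX 14 to 15 beside 18.2% to 18.8%. The cause of these changes was not tested; a group reduced to 1 library counts single calls.

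With the replicate number as a block, NFIA gave 0 called members (smallest adjusted p = 0.0733 in the exact permutation test) and the other comparisons kept 3, 3, 0 and 0 members. Deviations of same-numbered libraries correlated at -0.154 to 0.138, so the numbers were not taken to pair the samples. Peak lists without read counts limit all results to called presence.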
